A study of Mus musculus with 34 samples.

Results

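CD4+ spleen cells of the inbred mouse strain 129X1/SvJ were compared with those of 4 other inbred strains after stimulation. The comparison used the 17 arrays of stimulated cells among the 34 arrays of the study: 3 of 129X1/SvJ, and 14 of A/J (4), Balb/c (3), C57BL/6J (4) and DBA/2J (3). All mice were female and 8 weeks old. The cells were isolated from spleen with magnetic CD4 beads and received phorbol 12-myristate 13-acetate (PMA, 10 ng/ml) with ionomycin (1 uM) for 4 h, a state named T1. The other 17 arrays held unstimulated cells of the same strains and numbers per strain (T0), and were used to set each T1 difference beside the difference at T0. The sources used here do not say whether T0 cells were also kept in culture for those hours. A difference is the mean of the 129X1/SvJ arrays minus the mean of the 4 other strain means, on the log2 intensity scale, for 1 probe set per gene. Genes with a limma p under 0.05 after Benjamini-Hochberg adjustment over the 11413 genes tested are called. The labels call the replicates biological; the p values measure the spread between these samples.

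PMA mimics diacylglycerol and activates protein kinase C, and ionomycin lets calcium into the cell, so the pair drives the signals that normally follow the T cell receptor. Helper T cells answer with AP-1, NFAT and NF-kappaB activity, with transcription of cytokine genes and with entry into growth. Inbred strains carry different alleles throughout the genome, and the family to which 129X1/SvJ belongs is the source of many embryonic stem cell lines used to make mutant mice. A magnetic bead preparation can also keep other spleen cells. The mouse spleen makes red cells as well as lymphocytes, so B cell and erythroid genes can be read in such samples.

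The array labelled Balb/c T1 replicate 2 stood apart from its group. Its mean correlation with the other arrays of its strain was 0.948, against 0.965 to 0.989 for the other 16 arrays. Cd4 itself read 8.55, 7.96 and 8.31 in the 129X1/SvJ arrays and 7.91 to 9.15 in the others (median 8.74), so the groups overlapped (difference -0.33, SE 0.14, limma adjusted p = 0.197). Of 9 CD4 T cell markers, Cd3g and Cd3d were lower in 129X1/SvJ and 7 were not called (22.2% called against 6.69% of all genes). The summed level of these markers, as a mean log2 value relative to all 17 arrays, ran from -0.45 to -0.12 in 129X1/SvJ, from -0.38 to -0.24 in DBA/2J and from -0.03 to 0.39 in the other 3 strains. In bulk samples, fewer cells of a type and less RNA per cell cannot be told apart.

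At T1, 764 of 11413 genes (6.69%) were called, 354 higher (3.1%) and 410 lower (3.59%) in 129X1/SvJ. Differences of at least 1 log2 were held by 118 of them (1.03%), 19 higher and 99 lower. Called or not, 325 of the genes tested had all 3 129X1/SvJ arrays outside the range of the other 14 arrays. Of these, 257 were called (2.25% of the genes tested), with 127 above the range (1.11%) and 130 below it (1.14%). That split was 59 above and 168 below without 129X1/SvJ replicate 1, and 157 and 89 without replicate 2. Without Balb/c T1 replicate 2, 1192 genes were called (10.4%), 514 higher (4.5%) and 678 lower (5.94%), among them all 764 in the same direction. The count rested on each of the 3 129X1/SvJ arrays: it was 350, 349 and 229 without replicates 1, 2 and 4. Without replicate 2, 208 genes were higher and 141 lower, so the excess of lower genes was not kept. Nor was it kept without C57BL/6J T1 replicate 1 (416 higher, 399 lower). The same contrast for each other strain against the remaining 4 gave 1080 genes for A/J, 741 for DBA/2J, 710 for C57BL/6J and 61 for Balb/c. Against single strains, 129X1/SvJ differed at T1 in 1565 genes (13.7%) from A/J, 845 (7.4%) from C57BL/6J, 423 (3.71%) from Balb/c and 296 (2.59%) from DBA/2J. The Balb/c counts of 61 and 423 include its T1 replicate 2 and were not made without it.

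Gdpd3 on chromosome 7 had the largest difference among the higher genes that the naming rule gave. It encodes a phospholipase that acts on lysophospholipids, and read 9.51, 9.54 and 9.44 in 129X1/SvJ and 3.66 to 4.31 in the 14 other arrays (median 3.91). The other strains lay under 5.327, the median of all values and the limit of the filter, where a level is not shown to exceed background, so no fold is given. The difference was 5.54 (SE 0.12, limma adjusted p = 2.54e-16), and it was 6.33 at T0 (adjusted p = 1.33e-16).

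Wls encodes the membrane protein that carries Wnt proteins to the cell surface. It read 8.77, 8.47 and 9.22 in 129X1/SvJ against 5.3 to 6.07 in the others (median 5.76). All 3 arrays were far above every other array. The difference of 3.02 (SE 0.14, limma adjusted p = 5.99e-11) corresponds to 8.13-fold, and it was 1.77 at T0. Dhrs3, a retinal reductase of vitamin A metabolism, read 9.01, 8.64 and 9.13 in 129X1/SvJ and 6.50 to 8.56 in the others (median 6.86). DBA/2J, with a mean of 8.28, lay nearest to 129X1/SvJ, and the other 3 strain means lay between 6.71 and 6.84. The difference from all other strains was 1.78 (SE 0.13, limma adjusted p = 1.41e-07), and from DBA/2J alone 0.65 (adjusted p = 0.0467).

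St6galnac2, a sialyltransferase, read 6.92, 6.94 and 6.87 in 129X1/SvJ and 5.3 to 5.91 elsewhere (difference 1.32, SE 0.10, limma adjusted p = 2.14e-07). On chromosome 11 the next tested gene was the unnamed transcript BC018473, singled out after its values were seen. It read 10.63, 10.44 and 11.30 in 129X1/SvJ and 3.77 to 4.75 in the other strains, a difference of 6.77 (SE 0.17, adjusted p = 1.5e-15). Both neighbours were above every array of the other strains. Asns, which makes asparagine and belongs to the amino acid response, read 10.80, 10.85 and 11.15 against 8.14 to 10.50 (difference 1.34, SE 0.16, limma adjusted p = 5.55e-05). C57BL/6J had the lowest Asns mean (8.56), and DBA/2J (10.30) did not differ from 129X1/SvJ by the test (0.63, adjusted p = 0.116).

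The other 10 of the 15 largest named higher genes without overlap differed by 0.83 to 1.45. They were Zfp991, Thoc2l, Cacna1e (a subunit of a voltage-gated calcium channel), Ift57 (a protein of intraflagellar transport), Tubgcp5 (a part of the gamma-tubulin complex), Mcoln2 (a cation channel of endosomes), Lipg (endothelial lipase), Il10ra (the ligand-binding chain of the interleukin 10 receptor), Mreg and Arrdc4. Il10ra read 7.14, 7.29 and 7.25 against 5.78 to 7.10, so that the groups only just failed to overlap. Lipg read 6.79, 6.67 and 7.17 against 5.33 to 6.54, whereas its difference at T0 was 0.03 (adjusted p = 0.902). The calls of Mcoln2, Arrdc4 and Il10ra were lost without 129X1/SvJ replicate 4 (adjusted p = 0.0515, 0.0523 and 0.0585 at most over single arrays), and that of Il10ra also without replicate 2. Without Balb/c T1 replicate 2, the adjusted p of these 15 genes was at most 0.00578. Mcoln2, Mreg and Asns went with the summed level of the B cell markers in the 14 other arrays (r = 0.85, 0.85 and 0.86 over deviations from the strain means); its part in these results was not tested.

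**Figure D1:**
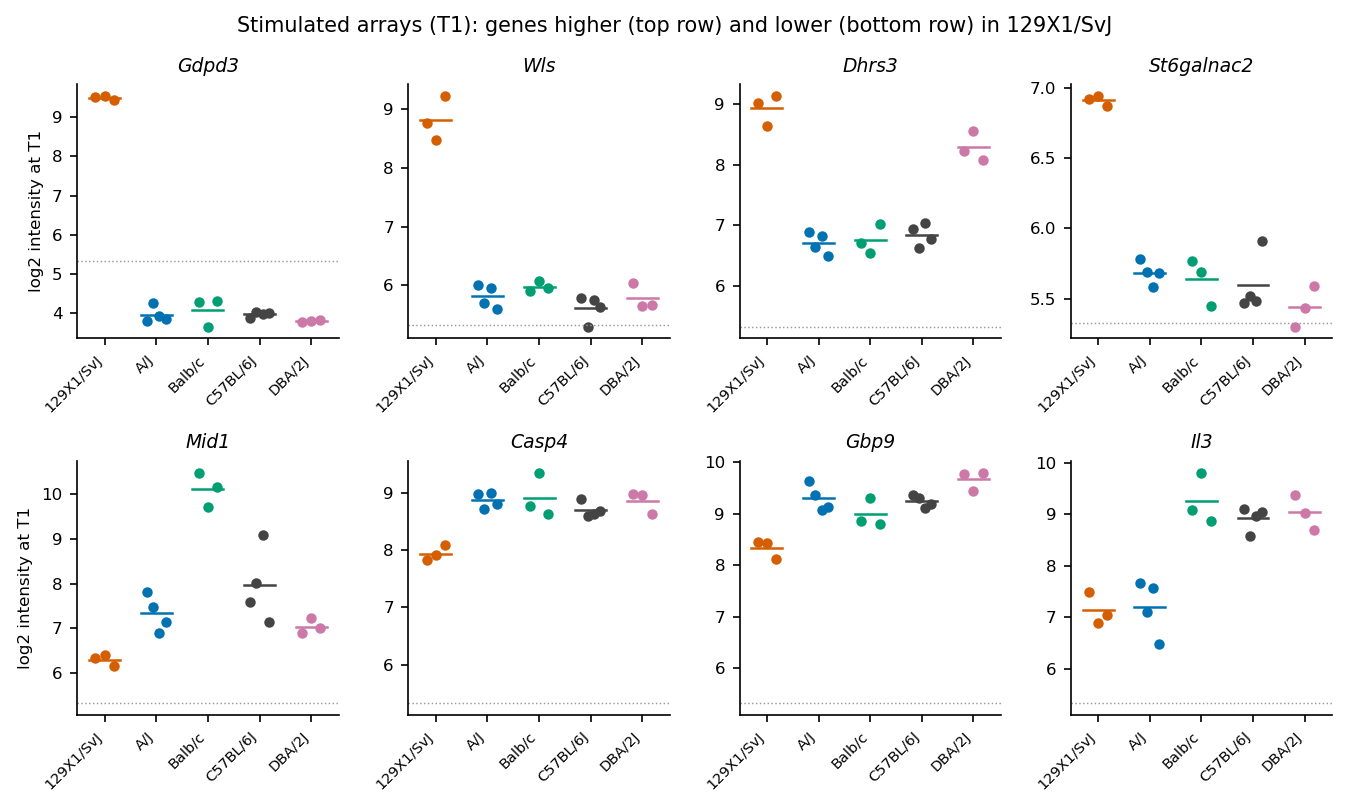
Log2 intensity at T1 of 4 genes higher in 129X1/SvJ (Gdpd3, Wls, Dhrs3, St6galnac2; top) and 4 genes lower (Mid1, Casp4, Gbp9, Il3; bottom), 1 point per array and a line at each strain mean; the dotted line is the filter limit of 5.327. The 3 129X1/SvJ points lie outside all others except for Il3, where the A/J mean is 7.20 against 7.14 in 129X1/SvJ.

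Several immune genes were lower in 129X1/SvJ than in every other array. Casp4, which encodes the mouse caspase-11 that senses cytosolic lipopolysaccharide and is known to be defective in relatives of 129X1/SvJ, read 7.83, 7.91 and 8.09 against 8.60 to 9.36 (median 8.80). All 4 other strain means lay between 8.70 and 8.92, and the difference was -0.90 (SE 0.13, limma adjusted p = 0.000348), or -0.81 at T0. Gbp9, an interferon-induced guanylate-binding protein, read 8.46, 8.43 and 8.12 against 8.80 to 9.80 (difference -0.97, SE 0.13, adjusted p = 0.000219). Mid1, a microtubule-associated ubiquitin ligase on the X chromosome, read 6.33, 6.4 and 6.15 against 6.89 to 10.48. Its difference of -1.82 (SE 0.26, adjusted p = 0.000486) included a Balb/c mean of 10.12, the highest of the strains. Against DBA/2J alone it was -0.74 (adjusted p = 0.352). These 3 calls held when any single array was left out, with adjusted p values up to 0.009.

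In some genes 1 other strain lay beside 129X1/SvJ. H2-Ea, an MHC class II chain known to be silent in mice of the b haplotype, read 5.13, 4.54 and 4.67 in 129X1/SvJ. The C57BL/6J mean was 4.83, while the means of A/J, Balb/c and DBA/2J lay between 10.14 and 11.85. The difference from the other strains was -4.67 (SE 0.22, limma adjusted p = 1.18e-10), and from C57BL/6J alone -0.05 (adjusted p = 0.951). Crip1, a LIM domain protein, read 8.47, 8.25 and 8.18 against 8.32 to 10.38, and the DBA/2J mean (8.43) lay beside that of 129X1/SvJ (difference from DBA/2J -0.13, adjusted p = 0.832). Its difference from all 4 strains was -0.99 (SE 0.12, adjusted p = 7e-05). The unnamed transcript AI506816, singled out after its values were seen, read 2.36, 2.90 and 2.41 in 129X1/SvJ and 3.87 to 9.44 elsewhere, a difference of -5.21 (SE 0.57, adjusted p = 2.64e-05). The 129X1/SvJ levels of AI506816 and H2-Ea lay under 5.327, so the sizes of both differences are not exact.

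Genes of red cell precursors were among those with the largest negative differences. Alas2, the first enzyme of the haem pathway in red cell precursors, read 6.60, 5.81 and 5.46 in 129X1/SvJ and 8.21 to 12.11 in the others (median 11.47). Its difference was -5.00 (SE 0.57, limma adjusted p = 4.33e-05), 31.9-fold lower. Slc4a1, the anion exchanger of the red cell membrane, read 5.61, 5.4 and 5.85 against 7.08 to 10.63 (median 9.83), 14.6-fold lower (difference -3.87, SE 0.50, adjusted p = 0.000176). In both genes the lowest array outside 129X1/SvJ was Balb/c T1 replicate 2, and all 3 129X1/SvJ arrays lay below it. Bpgm, which makes the 2,3-bisphosphoglycerate that regulates haemoglobin, differed by -3.39, and Car2, a carbonic anhydrase, by -2.44. Levels in 129X1/SvJ fell under the filter limit, so that sizes are not exact, for Fech (the last enzyme of haem synthesis, -3.23), Rhag (-2.93) and Kel (-2.42) of the blood group complexes, Epb42 (a protein of the membrane skeleton, -2.67), Hemgn (-2.21), Aqp1 (a water channel, -2.08), Trim10 (-2.48) and Gda (guanine deaminase, -3.54). Ube2l6, an enzyme of ISG15 conjugation, differed by -3.42 and Mkrn1 by -2.09. Without Balb/c T1 replicate 2 the adjusted p of these 14 genes was at most 4.7e-05, and without any other single array at most 0.0432.

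Of 15 erythroid markers tested, 12 were lower in 129X1/SvJ and 0 higher by limma, against 3.59% and 3.1% of all genes. Of the 15, 14 had an unadjusted p under 0.05 and 11 were called with a trended, robust variance. Their median difference was -2.21, against 0.019 over all genes. Their list was composed with results of these data known, and 10 further listed genes, the haemoglobins among them, were not analysed here. Without Balb/c T1 replicate 2, 14 were lower; without 129X1/SvJ replicates 1, 2 and 4, 8, 8 and 9 were. Tfrc, the transferrin receptor, which dividing lymphocytes also use, differed by 0.13 (limma adjusted p = 0.546), the only positive value in the list. Gata1, the erythroid transcription factor, gave -0.61 (adjusted p = 0.195) and Car1 -1.54 (adjusted p = 0.0649).

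The summed level of these 15 markers was -1.84, -1.76 and -1.45 in the 3 129X1/SvJ arrays. It ran from -1.27 to 1.30 in Balb/c, from -1.09 to 0.33 in C57BL/6J, from 0.40 to 1.18 in DBA/2J and from 0.66 to 1.32 in A/J. The 3 129X1/SvJ arrays were the lowest of the 17, followed by Balb/c T1 replicate 2. At T0, 12 of the 15 markers were also lower, against 6.51% of all genes, with a median difference of -2.01. Over the 14 arrays of other strains, taken as deviations from the strain means, 79 of the 99 genes lower by at least 1 log2 (79.8%) had a correlation of at least 0.7 with this summed level. Of all genes tested, 8.95% had. Without Balb/c T1 replicate 2 the shares were 66.7% and 3.7%. Arrays of a strain share its genotype, their preparation days are not known, and the list's own genes are among the 99.

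**Figure D2:**
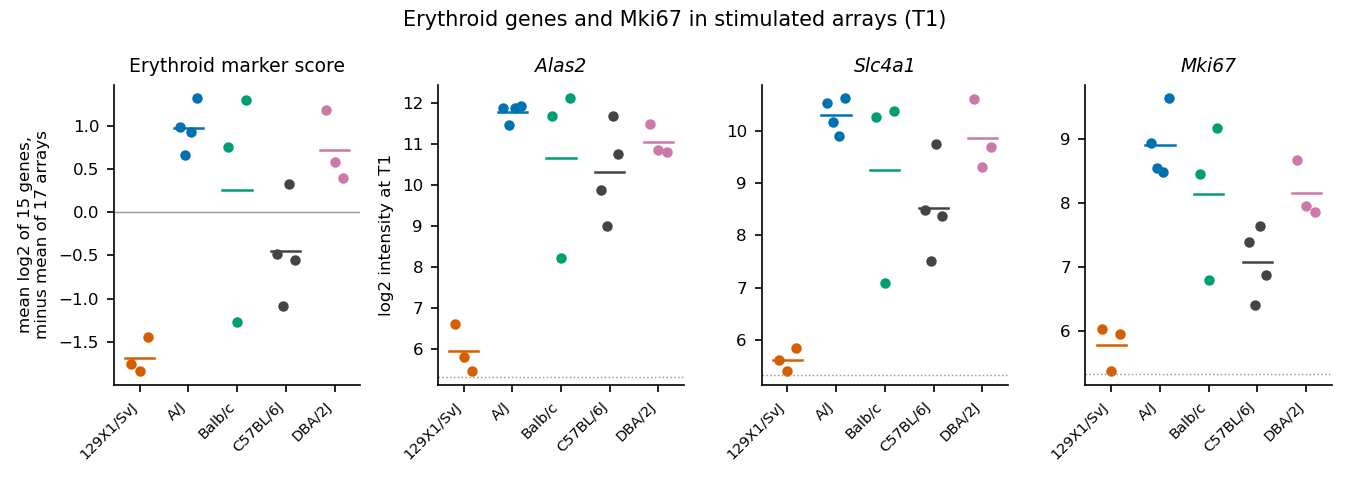
Summed level of 15 erythroid markers at T1 (mean log2 value minus the mean of 17 arrays) and log2 intensity of Alas2, Slc4a1 and Mki67, 1 point per array and a line at each strain mean; dotted lines show the filter limit of 5.327. The 129X1/SvJ points are the lowest in all 4 panels, from -1.84 to -1.45 for the summed level, and the lowest Balb/c point is replicate 2.

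GATA factors bind the letters GATA, preceded by A or T and followed by A or G, in promoters of red cell genes. Since these genes were lower together, their promoters were searched for this word. RefSeq sequence of GRCm38.p6, 250 bases before the annotated start, was at hand for 11 of the 15 markers. The word, on either strand and counted without overlap, stood in 9 of the 11 (81.8%), against 1838 of 9130 tested genes (20.1%). Of the genes lower by at least 1 log2, 25 of 79 (31.6%) held one, and of those higher by at least 1 log2, 3 of 14 (21.4%). The 79 include erythroid markers already counted, Alas2, Rhag and Epb42 among them, so the 2 shares are not separate. The list was made of red cell genes, and a part of the word in the strain difference was not tested. A match is a description of the letters and not of binding. The windows of 3 of the strongest erythroid genes are shown 5′ to 3′ on the gene's strand, with the matched word in capitals: Alas2 at chrX:150547167-150547416 (plus strand), Rhag at chr17:40810899-40811148 (plus strand) and Epb42 at chr2:121036878-121037127 (minus strand).
Alas2: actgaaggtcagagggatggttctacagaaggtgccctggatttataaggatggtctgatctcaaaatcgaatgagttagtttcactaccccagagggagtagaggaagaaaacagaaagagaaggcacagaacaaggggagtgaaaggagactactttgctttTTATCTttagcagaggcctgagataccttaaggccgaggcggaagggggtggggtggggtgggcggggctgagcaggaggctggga
Rhag: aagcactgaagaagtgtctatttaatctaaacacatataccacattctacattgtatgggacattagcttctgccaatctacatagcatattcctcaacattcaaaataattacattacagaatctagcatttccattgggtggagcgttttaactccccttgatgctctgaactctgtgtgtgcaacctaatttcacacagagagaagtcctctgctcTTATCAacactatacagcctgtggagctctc
Epb42: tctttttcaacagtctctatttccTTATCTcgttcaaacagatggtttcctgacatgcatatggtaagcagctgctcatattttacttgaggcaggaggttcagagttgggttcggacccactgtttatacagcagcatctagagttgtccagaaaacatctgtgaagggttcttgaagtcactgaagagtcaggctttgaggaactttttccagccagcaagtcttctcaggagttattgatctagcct

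Part of the cell division genes were lower. Of 24 cell cycle genes tested, 9 were lower and 2 higher in 129X1/SvJ (45.8% called against 6.69% of all genes; median difference -0.30). Mki67, the marker of cycling cells, read 6.03, 5.38 and 5.96 in 129X1/SvJ and 6.41 to 9.64 in the others (median 8.20), with no overlap (difference -2.28, SE 0.35, limma adjusted p = 0.000926). The cyclins Ccna2 and Ccnb2, of the S and G2 phases and of mitosis, differed by -1.55 and -1.0. Ccnd2, the cyclin that growth signals induce in G1, went the other way: 12.32, 12.41 and 12.47 against 11.28 to 12.31 (difference 0.62, SE 0.10, adjusted p = 0.000861), with a difference of 0.19 from DBA/2J alone (adjusted p = 0.586). Mki67, Ccna2 and Ccnb2 also moved with the summed erythroid level in the other strains (r = 0.95, 0.87 and 0.82 over 14 arrays; 0.89, 0.81 and 0.87 without Balb/c T1 replicate 2), and the part of erythroid cells in these values was not tested. The count of lower genes was 5, 3 and 4 without 129X1/SvJ replicates 1, 2 and 4.

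Many genes of cholesterol synthesis were higher in stimulated 129X1/SvJ cells. Of 18 genes of cholesterol synthesis and uptake, 10 were higher and 0 lower (55.6% called against 6.69% of all genes; 12 with an unadjusted p under 0.05 and 10 called with a trended, robust variance). Their median difference was 0.45. Hmgcs1, which makes the precursor of mevalonate, read 10.72, 10.53 and 10.87 against 9.46 to 10.58 (median 9.88), so that 1 DBA/2J array exceeded the lowest 129X1/SvJ array. Its difference was 0.72 (SE 0.13, limma adjusted p = 0.00272). Mvd, a decarboxylase of the mevalonate pathway, read 7.92, 7.44 and 7.52 against 6.76 to 7.38 and did not overlap (0.56, SE 0.11, adjusted p = 0.00409). Sqle and Fdft1, which make squalene and its epoxide on the way to sterols, differed by 0.65 and 0.66. At T0, 4 of the list were higher and 2 lower, against 5.32% and 6.51% of all genes. Without 129X1/SvJ replicates 1 and 4 the count of 10 dropped to 3 and 2, and it stayed at 10 without replicate 2 and rose to 11 without Balb/c T1 replicate 2. Mvd lost its call without replicate 1 (adjusted p = 0.0557), Sqle without replicate 4 (0.059) and Fdft1 without either (up to 0.0881). Hmgcs1 went with the summed B cell level in the other strains (r = 0.87 over 14 arrays), a relation whose part in the result was not tested.

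Of 27 genes of ribosome biogenesis, 2 were higher and 0 lower (7.41% called against 6.69% of all genes), and the differences of the 27 lay between 0.05 and 0.52. Leaving out Balb/c T1 replicate 2 gave 6 higher of the 27. Polr1a, the large subunit of RNA polymerase I, read 9.26, 9.05 and 9.19 against 8.38 to 8.92 (difference 0.43, SE 0.10, limma adjusted p = 0.0161). Utp20 differed by 0.52 (adjusted p = 0.0161). Both were lost without 129X1/SvJ replicate 1 or 4, and Utp20 also without replicate 2 (adjusted p up to 0.104). Glycolysis had 0 of 16 genes called by limma and heat shock proteins 0 of 14, with 3 and 4 at an unadjusted p under 0.05 and 0 and 0 with a trended, robust variance.

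Of the antigen presentation genes called, most of class II were higher and those of class I were lower. Of 10 class II genes, 4 were higher and 1, H2-Ea, was lower, against 3.1% and 3.59% of all genes. Without 129X1/SvJ replicate 4, 2 were higher. At T0, 7 were higher and 1 lower, against 5.32% and 6.51% of all genes. The median difference was 0.84 at T0 and 0.47 at T1. B cell markers were also higher at both times, and the part of B cells in the class II values was not tested. H2-Eb2 read 6.37, 6.16 and 6.57 against 4.41 to 6.54, and H2-Ob, a chain of the peptide loading modulator, 8.53, 8.02 and 8.62 against 6.80 to 8.42. The C57BL/6J means were 6.24 and 8.27 (differences of 0.12 and 0.12, limma adjusted p = 0.695 and 0.721), and the other 3 strain means were 4.79 to 5.10 and 7.01 to 7.14. The differences were 1.13 (SE 0.12, limma adjusted p = 2.64e-05) and 1.01 (SE 0.13, adjusted p = 0.000135). Cd74, the invariant chain, differed by 0.55 (adjusted p = 0.0114, or 0.163 without replicate 4). Of 16 class I and processing genes, 6 were lower and 0 higher (37.5% called against 6.69%), with Psmb9 and Psmb8, subunits of the immunoproteasome, at -0.42 and -0.65. Without 129X1/SvJ replicates 1, 2 and 4 the 6 dropped to 3, 1 and 0. Without Balb/c T1 replicate 2, 7 were lower and 1 higher, and the differences of the 16 with all arrays ran from -0.65 to 0.55. The class I list held 28 genes, and H2-K1, H2-D1 and H2-L were among those not analysed here. H2-Q4 belongs to a family of near-identical genes whose probes can share signal. Its call was lost without any of 12 single arrays (limma adjusted p up to 0.311).

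Some B cell genes were higher in 129X1/SvJ: 5 of 17 markers were called (29.4% against 6.69% of all genes), with 0 lower and a median difference of 0.36. The differences of the 17 reached down to -0.69. Without Balb/c T1 replicate 2, 6 were higher and 1 lower, and without C57BL/6J T1 replicate 4, 5 and 1. Blk, a kinase of the B cell receptor, read 9.89, 9.69 and 10.02 against 8.44 to 9.76 (difference 0.82, SE 0.14, limma adjusted p = 0.00201). The transcription factors Ebf1 and Spib and the adaptor Blnk differed by 0.71, 0.82 and 0.73, each without overlap. Cd79a and Cd79b, of the B cell receptor, gave 0.25 and 0.23 (adjusted p = 0.528 and 0.656). The summed B cell level was 0.08, 0.28 and 0.40 in 129X1/SvJ and -0.37 to 0.25 in the others, so it overlapped. At T0, 12 of 17 were higher and 1 lower, against 5.32% and 6.51% of all genes, with a median of 0.80. The summed B cell level at T0 was 1.41 to 1.94 in 129X1/SvJ and 1.31 to 1.92 in DBA/2J, and 0.26 to 1.22 in the other 3 strains. Of the 354 genes higher at T1, 30.2% correlated at 0.7 or more with this level over the 14 other arrays, against 6.59% of all genes. The calls of Blnk, Ebf1 and Spib were lost without replicate 4 (adjusted p up to 0.11), and 1 marker was then called; Spib was also lost without replicate 1.

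Interferon genes went both ways. Of 31 interferon-stimulated genes, 4 were higher and 4 lower (25.8% called against 6.69% of all genes). Without 129X1/SvJ replicates 1, 2 and 4, the higher genes numbered 2, 3 and 0 and the lower genes 2, 1 and 1. Ifih1, the cytosolic sensor MDA5, read 8.28, 8.24 and 8.36 against 7.21 to 8.33 (difference 0.65, SE 0.13, limma adjusted p = 0.005). Oasl1 differed by 0.71 and Ifit2 by 0.62. Isg20, an exonuclease, read 6.66, 6.53 and 6.52 against 7.07 to 9.37 (difference -1.88, SE 0.33, adjusted p = 0.00228). Isg20 also went with the summed erythroid level in the other strains (r = 0.94 over 14 arrays, 0.85 without Balb/c T1 replicate 2). Ifih1, Oasl1 and Ifit2 were lost without replicate 4 (adjusted p up to 0.105), and Oasl1 also without replicate 1. Of 16 genes of the Schlafen and Gimap families, 1 was higher and 2 lower (18.8% called against 6.69% of all genes). Slfn8 and Slfn1 were lower (-0.53 and -0.51) and Slfn9 was higher (0.56). Slfn1 was lost without 129X1/SvJ replicate 4 (limma adjusted p = 0.242) and Slfn9 without replicate 1 (0.105).

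**Figure D3:**
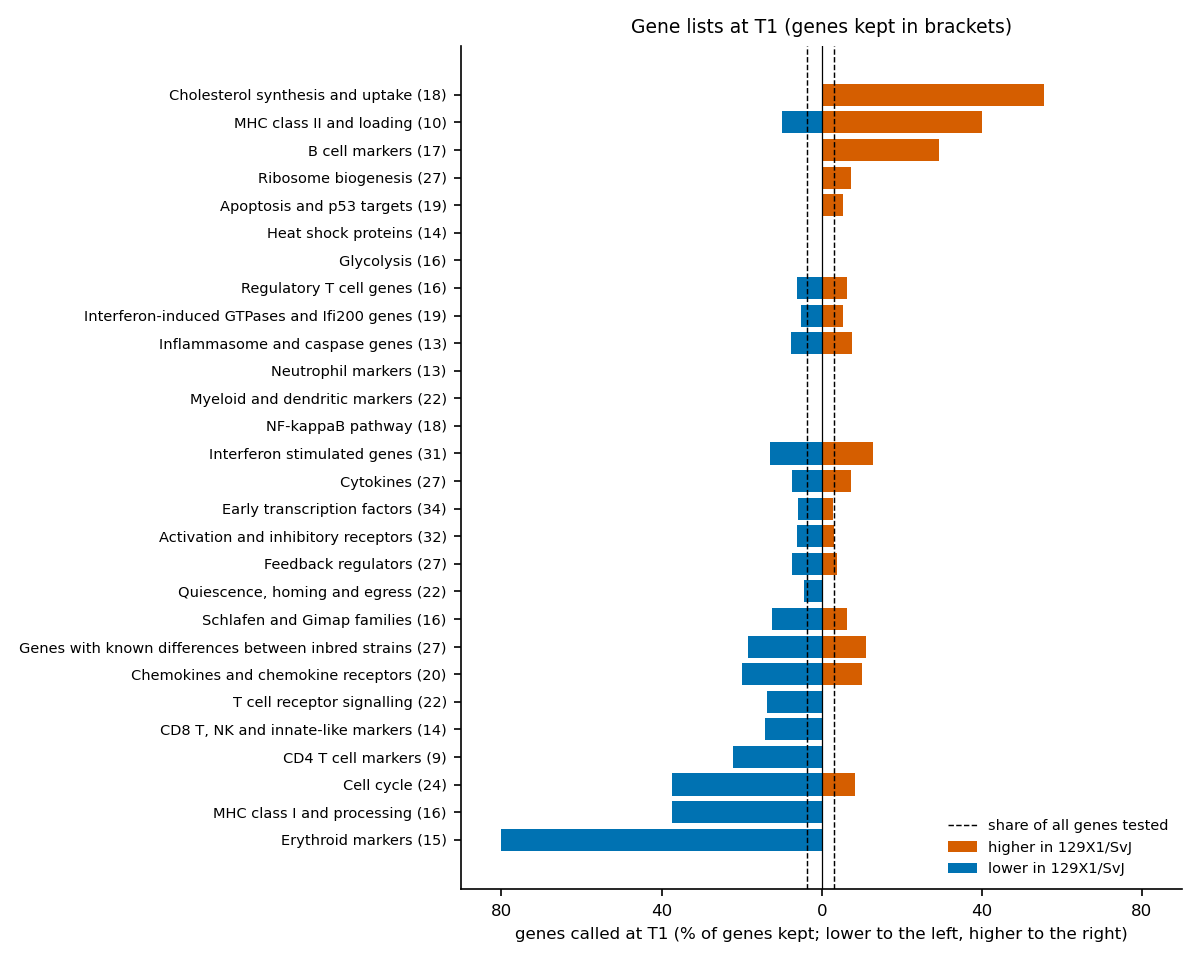
Share of the genes kept in each list that were called at T1, higher in 129X1/SvJ to the right and lower to the left (percent; number of genes kept in brackets; the list with 2 genes kept is left out). Dashed lines mark the shares over all genes tested, 3.1% higher and 3.59% lower; the longest bars are the erythroid markers (12 of 15 lower) and cholesterol synthesis (10 of 18 higher).

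Il2, Ifng, Tnf and Il4 did not pass the test at T1. Il2, the T cell growth factor, read 10.31, 10.86 and 10.15 in 129X1/SvJ and 10.38 to 11.53 in the others (difference -0.29, SE 0.18, limma adjusted p = 0.39). Ifng read 11.31, 11.74 and 11.20 against 11.10 to 11.96 (0.01, SE 0.14, adjusted p = 0.988), and Tnf 10.38, 10.40 and 10.24 against 10.04 to 10.75 (-0.02, SE 0.09, adjusted p = 0.95). In these genes the ranges overlapped. Il4, the cytokine of type 2 helper cells, gave -0.58 (SE 0.20, adjusted p = 0.0869). A missed threshold does not show equal levels.

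Of 27 cytokine genes, 4 were called (14.8% against 6.69% of all genes), 2 in each direction. Without Balb/c T1 replicate 2, 4 were higher and 2 lower; without 129X1/SvJ replicates 2 and 4, 0 were higher and 1 lower, and without replicate 1, 1 and 1. Il3, a growth factor of mast cells and blood precursors, read 7.48, 6.88 and 7.05 in 129X1/SvJ and 6.47 to 9.81 in the others (median 8.92). The A/J mean was 7.20 and that of 129X1/SvJ 7.14, and the other 3 means were 8.92 to 9.26. The difference was -1.46 (SE 0.22, limma adjusted p = 0.000686), and -0.06 from A/J alone (adjusted p = 0.923). Il17a, the cytokine of Th17 cells, read 9.70, 10.49 and 9.60 against 8.23 to 10.29 (0.93, SE 0.25, adjusted p = 0.0312). Il10, which restrains inflammation, read 10.64, 10.67 and 11.02 against 9.69 to 10.69 (0.57, SE 0.14, adjusted p = 0.0172). Both overlapped the other strains and lost their calls without single 129X1/SvJ arrays, Il10 without replicate 2 or 4 (adjusted p up to 0.175) and Il17a without any of the 3 (up to 0.225), with a trended, robust variance or with a replicate block. Tnfsf11, which encodes RANKL, differed by -0.76 (adjusted p = 0.0398) and lost its call without any of 9 single arrays, all 3 of 129X1/SvJ, 3 of A/J and 3 of DBA/2J (up to 0.244). Its correlation with the summed erythroid level over the 14 other arrays was -0.92, and the part of that level was not tested.

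Of 20 chemokine and chemokine receptor genes, 2 were higher and 4 lower (30.0% called against 6.69% of all genes); without 129X1/SvJ replicates 1, 2 and 4, 3, 1 and 1 were called. Ccl4, an inflammatory chemokine, differed by 0.54 (SE 0.11, limma adjusted p = 0.0046), with a DBA/2J mean of 12.05 above all 129X1/SvJ arrays but 1. Ccr8, a receptor of type 2 and regulatory T cells, read 9.39, 9.20 and 9.16 against 9.58 to 10.53, with no overlap (-0.67, SE 0.15, adjusted p = 0.00948), and Ccr4 differed by -0.50. Without 129X1/SvJ replicate 2, Ccl4, Ccr8 and Ccr4 were lost; the latter 2 were lost also without replicate 4, and Ccr4 without DBA/2J replicate 4 (adjusted p up to 0.304). Of 22 T cell receptor signalling genes, 3 were lower and 0 higher (13.6% against 6.69%); 2 were lower without 129X1/SvJ replicate 2 and 1 without replicate 4. Cd3g, a chain of the receptor complex, read 8.89, 8.61 and 8.90 against 8.94 to 10.35 (-0.82, SE 0.15, adjusted p = 0.00243). Its neighbour Cd3d on chromosome 9 differed by -0.62 (adjusted p = 0.0105, 0.149 without replicate 4), and DBA/2J had the nearest mean for both.

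In the lists of induced genes, 3 of 34 early transcription factors (8.82%), 3 of 27 feedback regulators (11.1%) and 3 of 32 activation and inhibitory receptors (9.38%) were called, against 6.69% of all genes. Without 129X1/SvJ replicate 2, 0, 1 and 0 were called, and without replicate 4, 0, 2 and 0. The NF-kappaB pathway had 0 of 18 called by limma, with 2 at an unadjusted p under 0.05 and 1 called with a trended, robust variance. Gata3, the factor of type 2 helper cells, read 9.03, 8.88 and 8.56 against 8.99 to 9.66 (-0.47, SE 0.11, adjusted p = 0.015). Rgs16, a regulator of G protein signalling, differed by -0.70 (SE 0.09, adjusted p = 0.000232) with a DBA/2J mean of 10.82 far above all others. Tnfrsf9, the costimulatory receptor 4-1BB, differed by -0.50 (adjusted p = 0.0256). Gata3 and Tnfrsf9 were lost without 129X1/SvJ replicate 2 or 4 (adjusted p up to 0.203). At T0, 11 of the 34 early transcription factors, 10 of the 27 feedback regulators and 8 of the 27 cytokines were lower in 129X1/SvJ, against 6.51% of all genes.

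The next comparison asks whether the step from T0 to T1 differed between 129X1/SvJ and the other strains. This response (T1 minus T0) was called different for 223 genes (1.95%), larger in 129X1/SvJ for 135 (1.18%) and smaller for 88 (0.771%). Of these 223, 166 were also called at T0, against 11.8% of all genes. In 162 of them the T0 difference had the sign opposed to the response difference. At T1, 75 of the 223 were called (33.6%, against 6.69% of all genes). The T0 arrays enter both the T0 test and the response test. The excess of larger responses was not kept without 129X1/SvJ T1 replicate 1 (82 larger, 95 smaller), without T0 replicate 2 (72 and 76) or once arrays sharing strain and number were blocked (176 and 174). The number of called responses was 350 with strain and number as a block, and 148 without 129X1/SvJ T0 replicate 1 or without T0 replicate 2. Il4 read 7.31, 6.44 and 6.81 in 129X1/SvJ at T0 and 10.64, 10.88 and 10.44 at T1, a step of 3.80. The steps were 4.90 in DBA/2J, 1.18 in C57BL/6J, 1.13 in Balb/c and 0.19 in A/J. Its response exceeded the mean of the others by 1.95 (SE 0.31, limma adjusted p = 0.000316), while its T0 level was lower by 2.53 log2 and its T1 level overlapped. Ifng stepped by 6.07 in 129X1/SvJ and 6.22 in DBA/2J, and by 4.48 to 4.84 in the rest (1.00, SE 0.24, adjusted p = 0.0165, lost without T1 replicate 2 or T0 replicate 4, up to 0.115). Il2ra, the alpha chain of the interleukin 2 receptor, stepped by 3.54 and 3.60 in 129X1/SvJ and DBA/2J against 1.94 to 2.28 (1.08, SE 0.20, adjusted p = 0.00188). At T0, Ifng and Il2ra were both called lower in 129X1/SvJ. Over the alternatives of the T0 fit their differences were -1.14 to -0.85 and -0.9 to -0.77.

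Fewest genes separated the response of 129X1/SvJ from that of DBA/2J. Tested against single strains, in comparisons that share the 129X1/SvJ arrays, the response differed in 41 genes (0.359%) from DBA/2J, 195 (1.71%) from Balb/c, 323 (2.83%) from A/J and 385 (3.37%) from C57BL/6J. Of these strains, DBA/2J and Balb/c had 3 arrays at each time, A/J and C57BL/6J 4. The Balb/c count includes its T1 replicate 2. Dhrs3 stepped by 1.49 in 129X1/SvJ and 1.58 in DBA/2J and by -0.11 to -0.02 in the other strains. The response difference from DBA/2J was -0.09 (SE 0.24, limma adjusted p = 0.995), and from the others 1.51 to 1.60 (adjusted p up to 0.000116). Gata3, Ccnd2 and Socs3, a suppressor of cytokine signalling, had the same order: larger than in A/J, Balb/c and C57BL/6J by 0.73 to 1.00, 0.84 to 1.29 and 1.22 to 1.38, and than in DBA/2J by 0.14, 0.13 and 0.16 (adjusted p = 0.994 each). Crip1 and Il18r1, a chain of the interleukin 18 receptor, had smaller responses in 129X1/SvJ (-0.90 and -1.0), and differed from DBA/2J by -0.21 (SE 0.21, adjusted p = 0.993) and -0.39 (SE 0.18, adjusted p = 0.72). Missing the threshold against DBA/2J does not show equal responses. The labels name no batch and no preparation day.

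Others set 129X1/SvJ apart from DBA/2J as well. Wls stepped by 1.04 in 129X1/SvJ and by -0.53 to -0.05 in the 4 other strains, a response difference of 1.25 (SE 0.17, limma adjusted p = 6.13e-05), and 1.09 against DBA/2J (adjusted p = 0.0108). Got1, a transaminase, stepped by 1.56 against 0.22 to 0.70 (1.09, adjusted p = 0.00021). Dock10, a guanine nucleotide exchange factor, stepped by 1.46 against 0.19 to 0.77 (1.06, adjusted p = 4.84e-06). Il3 stepped by 3.94 in 129X1/SvJ and 4.05 in A/J against 5.72 to 6.05 elsewhere (-1.46, SE 0.27, adjusted p = 0.00178). At T0 Il3 lay under the filter limit in every array, so these steps are not exact. Each of these 4 response calls held under all 40 alternatives of the response fit.

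**Figure D4:**
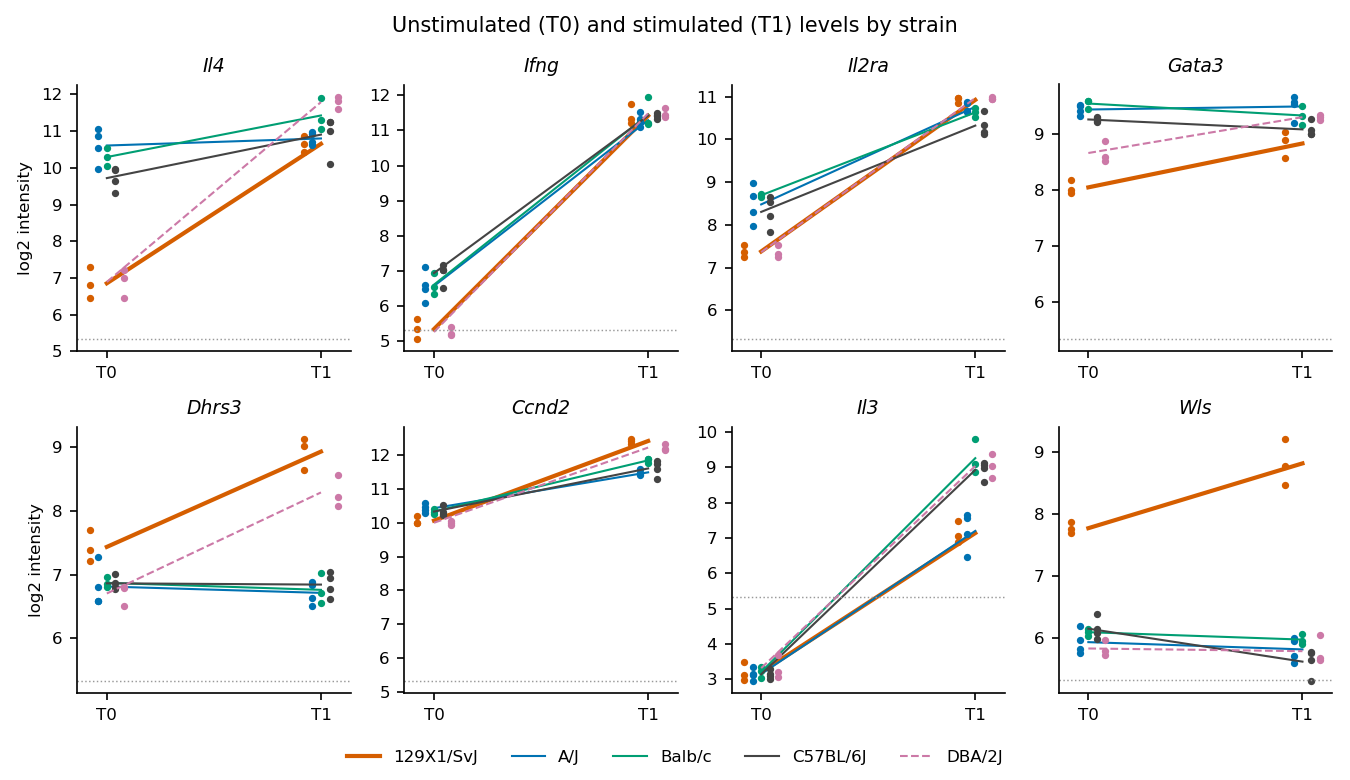
Log2 intensity at T0 and T1 of 8 genes, 1 point per array; lines join the strain means (129X1/SvJ thick, DBA/2J dashed) and the dotted line is the filter limit of 5.327. For Il4, Ifng, Il2ra and Dhrs3 the 129X1/SvJ and DBA/2J steps are 3.80 and 4.90, 6.07 and 6.22, 3.54 and 3.60, and 1.49 and 1.58; for Il3 the 129X1/SvJ and A/J means end at 7.14 and 7.20, and for Wls the step of 129X1/SvJ is 1.04 and that of the others -0.53 to -0.05.

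Many T1 differences were already present at T0, where 1350 genes were called (11.8%), 607 higher (5.32%) and 743 lower (6.51%), or 546 and 409 without 129X1/SvJ T0 replicate 2. Both times called 357 genes, 45.8% of the T1 calls and 25.9% of the T0 calls, of which 350 had the same direction (141 higher, 209 lower). The arrays of the 2 times are separate, but whether they came from the same mice is not stated. Alas2, Slc4a1 and H2-Ea had like differences at T0 (-4.95, -3.65 and -4.68). Il18r1, Dock10, Got1, Socs3 and Phlpp1 were among the 7 genes called in opposite directions: Il18r1 was higher at T0 by 0.62 and lower at T1 by 0.38 log2, and Dock10 lower at T0 by 0.73 and higher at T1 by 0.33. The T1 calls of Socs3 and Got1 were lost without most single arrays (11 and 13 of 17), and those of Il18r1 and Dock10 without 129X1/SvJ replicate 2 or 4. Phlpp1 lost its T1 call without 129X1/SvJ T1 replicate 4 and its T0 call without T0 replicate 1 or 2 (adjusted p up to 0.0539).

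**Figure D5:**
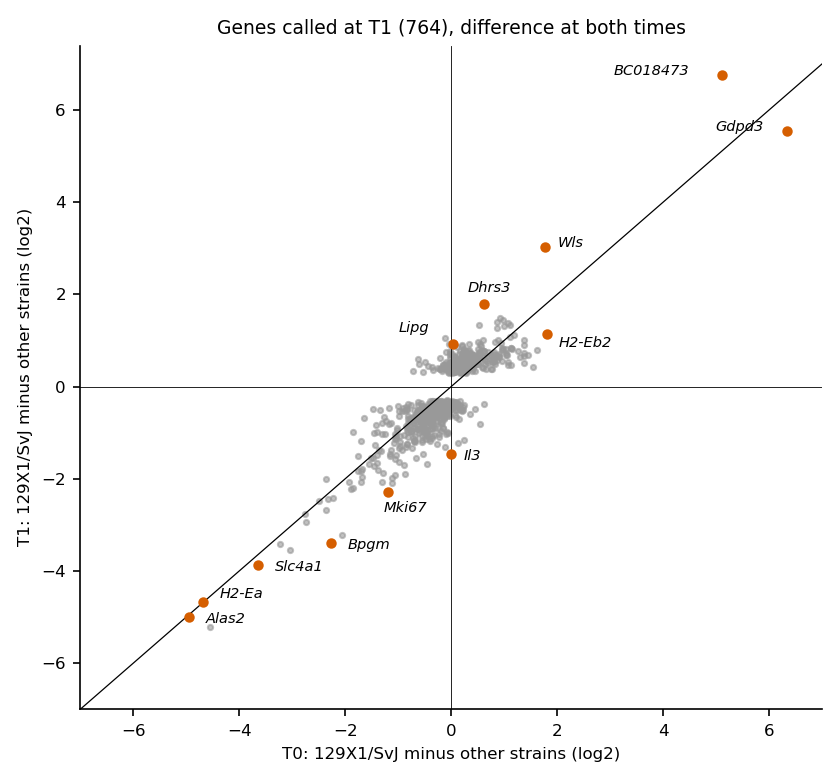
Difference between 129X1/SvJ and the other strains (log2) at T0 (horizontal) and T1 (vertical) for the 764 genes called at T1, with 12 genes named and the line of equal values. Alas2, Slc4a1 and H2-Ea lie near the line, Wls lies above it, and Lipg has a T0 difference of 0.03.

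The calls were spread over the chromosomes, from 3.78% of the tested genes on chromosome 10 to 9.87% on chromosome 12 among the autosomes. Of the higher genes, 68 of 353 (19.3%) had an adjacent tested gene that was also higher, and of the lower genes 64 of 410 (15.6%) one that was also lower. Of all genes tested, 3.1% were called higher and 3.59% lower, but how many of them had such a neighbour was not counted. Whether 19.3% and 15.6% are more than for genes in general was not tested. Beside St6galnac2 with BC018473, neighbours called in the same direction included Cd3g with Cd3d, Mid1 with G530011O06Rik and histone genes on chromosome 13 (H2bc3, H2ac4 and H1f1 at -0.93, -1.63 and -1.18). These examples were chosen after their values were seen. Of 61 called genes with several probe sets, 25 had another probe set called in the same direction and 0 in the opposite direction by limma.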

How the data were processed

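Gene expression was measured on 34 Affymetrix arrays, 1 per sample. Per the submitters' processing notes the authors used RMA, and what they deposited is 1 log2 intensity for each probe set and array. RMA makes array distributions alike, so a shift common to all genes cannot be seen. The sources used here give no RMA version or array build. Values ran from 1.04 to 14.26, with array medians of 5.28 to 5.39. Of 35556 probe sets, 21789 had 1 gene symbol; each of 19938 genes kept its probe set of highest mean. Genes whose highest group mean reached the median of all values (5.327) were tested (11413).

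The T1 fit used the 17 T1 arrays in 5 strain groups, the T0 fit the 17 T0 arrays and the response fit all 34 (limma 3.58.1, R 4.3.3, Benjamini-Hochberg). It was tested on simulated data. Precision is limited by 3 or 4 arrays per group. Gene names came from the platform annotation and RefSeq (GRCm38.p6). Members, gene lists and the naming rule were chosen with earlier results of these data known. The rule named the 15 largest higher and lower genes without overlap, up to 4 genes per list and a short fixed set. It also named the 6 largest response differences each way among genes called both for the response and at T1. The summed level of a list is the mean log2 value of its tested genes minus its mean over the T1 arrays. The labels do not say that replicate numbers pair the samples, and the main fits did not use them as pairs. Same-numbered T1 arrays of different strains had correlations of deviations from -0.177 to 0.379, and T0 and T1 arrays of the same strain and number from -0.078 to 0.474, over 0.1 in 14 of 17 pairs, against 6 of 42 for other numbers of the same strain. Alternatives left out each array, and changed the filter, normalization, weights, probe set rule, variance model, samples in the fit and block.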

Additional observations from a re-analysis of the deposited data

Results flagged for a closer look

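Among 296 strain groups of 4 T1 arrays over the named genes, 19 held an array whose distance from the nearest other array passed Dixon's critical value at the 5% level, so chance flags about 5% of groups. In A/J the arrays that stood apart read 11.46 for Alas2, 8.46 for Gda, 9.42 for Ube2l6, 8.07 for Fech, 7.37 for Phlpp1, 9.60 for Got1, 10.07 for Il10, 8.81 for Psmb8, 8.26 for Pigq, 4.97 for Klra3 and 7.11 for Nkg7. In C57BL/6J they read 5.91 for St6galnac2, 7.30 for Bcl3, 8.37 for Grap2, 5.09 for Ifit2, 7.73 for Gimap1, 11.96 for Hspa5, 5.05 for Camp and 8.86 for Tbx21.

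The responses listed here are the most different among genes called by limma both for the response and at T1, with unnamed transcripts passed over. Il4 had a larger response difference but was not called at T1, so it is not in this list. The listed responses were larger in 129X1/SvJ by 1.25 for Wls, 1.21 for Phlpp1, 1.16 for Dhrs3, 1.09 for Got1, 1.06 for Dock10 and 1.02 for Socs3. They were smaller, with differences of -1.46 for Il3, -1.41 for D17H6S56E-5, -1.0 for Il18r1, -0.96 for D6Wsu163e, -0.93 for Eif2ak3 and -0.90 for Crip1. The calls of D17H6S56E-5, D6Wsu163e and Eif2ak3 were lost without single 129X1/SvJ arrays (5, 4 and 4 arrays; adjusted p up to 0.16, 0.169 and 0.141), and the other 9 held under all 40 alternatives.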

How the results depend on the processing

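No called gene named by the rule reversed direction, but the split of calls by direction did turn. At T1 it turned to 208 higher and 141 lower without 129X1/SvJ replicate 2. It was 416 and 399 without C57BL/6J T1 replicate 1, and 678 and 631 with all 34 arrays in 1 fit. For the response it turned to 82 larger and 95 smaller without 129X1/SvJ T1 replicate 1, and to 72 and 76 without its T0 replicate 2. The 764 genes called at T1 became 1192 without Balb/c T1 replicate 2 and 1309 with all 34 arrays in 1 fit; over single arrays left out they ran from 229 to 1192. Over single arrays left out, the 257 called genes without overlap ran from 157 (without 129X1/SvJ replicate 4) to 338. The 118 called genes of at least 1 log2 ran from 78 (without 129X1/SvJ replicate 2) to 150. The 1350 genes called at T0 fell to 898 and 822 without 129X1/SvJ T0 replicates 1 and 4. The 223 response calls fell to 148 without 129X1/SvJ T0 replicate 1 or 2 and reached 319 without Balb/c T1 replicate 2. With replicate number as a block, 687 genes were called at T1 and 1931 at T0; with strain and number as a block, 350 were called for the response. The other changes of filter, normalization, weights, probe set rule and variance model left these counts within 1.5 times. Of 96 called genes named by the rule, 46 kept their calls under every alternative; 193 of 2496 pairs of gene and alternative lost the call, 44 of them without 129X1/SvJ replicate 4, 28 without replicate 2 and 23 without replicate 1. Levels under 5.327 are not shown to exceed background, which limits the sizes for Gdpd3, BC018473, AI506816, H2-Ea, Il3 at T0 and several erythroid genes.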

Other observations

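Of 16 genes of regulatory T cells, 1 was higher and 1 lower in 129X1/SvJ (12.5% called against 6.69% of all genes). Ebi3, a chain of interleukins 27 and 35, read 6.72, 6.33 and 6.94 in 129X1/SvJ and 5.46 to 6.42 in the others (difference 0.77, SE 0.14, limma adjusted p = 0.0038, or 0.0566 without 129X1/SvJ replicate 4). Nrp1, a receptor of semaphorins, read 6.12, 5.57 and 6.02 against 6.04 to 8.75 (difference -1.22, SE 0.33, adjusted p = 0.0349). Its call was lost without any of the 129X1/SvJ arrays or without DBA/2J replicate 2 (adjusted p up to 0.172), with a replicate block and with a trended, robust variance. Among 14 markers of CD8 T, NK and innate-like cells, 2 receptors of NK cells were lower, Klrc1 by 0.90 and Klra3 by 0.89 log2, and 0 were higher. Klrc1 was lost without 129X1/SvJ replicate 1 (adjusted p = 0.103) and Klra3 without 10 single arrays (up to 0.172). Klra3 belongs to a family of near-identical receptors, and its 129X1/SvJ mean of 4.55 lay under the filter limit. Of 22 myeloid and dendritic markers and 13 neutrophil markers, 0 and 0 were called by limma, with 1 and 2 at an unadjusted p under 0.05 and 0 and 0 with a trended, robust variance.

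Of 27 genes known to differ between inbred strains, 8 were called (29.6% against 6.69% of all genes), 3 higher and 5 lower. Beside Gdpd3, Casp4, H2-Ea and Mid1, already described, they included Glo1, which detoxifies methylglyoxal and is duplicated in some inbred strains, at -0.98 (limma adjusted p = 0.00196), and Cd72, a B cell receptor that varies between strains, at 0.67 (adjusted p = 0.0429). These 2 genes were chosen after their values were seen. With any 1 of the 129X1/SvJ arrays or A/J T1 replicate 1 left out, the 3 higher calls fell to 1. Gdpd3 kept its call there, so that of Cd72 was lost.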
